A study of Mus musculus with 18 samples.

Results

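The SR protein genes Srsf1, Srsf2, Srsf3, Srsf4, Srsf5, Srsf6, Srsf7, Srsf9, Srsf10 and Srsf11 were followed in mouse colon, lung and liver after oral RECTAS, a small molecule given to alter splicing. They were taken by gene symbol as members of the family, with no cut on their measured values, and made up 10 of the 55401 genes listed. The family itself was chosen with earlier results of these data known. All animals were C57BL/6N mice of 7 weeks of age, and the labels name no altered allele and no sex. Treated mice received RECTAS by mouth at 100 mg per kg body weight in a carrier of 0.5% carboxymethyl cellulose, and vehicle mice received the carrier alone. The doses were given 4 h apart, and the tissues were removed 8 h after dosing began. Polyadenylated RNA of whole tissue was sequenced in 18 libraries, 3 for every combination of tissue and treatment. Whether replicate libraries represent different mice is not stated in the labels, so p-values measure the spread between these libraries only. The labels also do not say whether 1 mouse gave all 3 tissues. Fits across tissues treated the libraries as independent and took no account of shared mice.

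SR proteins bind pre-mRNA through RNA recognition motifs and carry a tail rich in arginine and serine, through which they contact the splicing machinery. Bound to exonic enhancers they favour inclusion of an exon, and several of them also act in mRNA export and translation. CLK and SRPK kinases phosphorylate the tail, which sets where the proteins lie in the nucleus and what they bind. RECTAS is known as a compound that alters exon inclusion, and SRSF6 and CLK1 have been named in its action. Phosphorylation, protein and exon use were not measured here: the values are RNA abundance per gene. Many SR genes also hold a conserved exon that directs their own transcript to nonsense-mediated decay, the pathway that removes mRNA with an early stop codon. In the GENCODE M21 annotation, 9 of the 10 genes had a transcript of that class, against 20.8% of all coding genes, and 8 had a retained-intron transcript, against 41.5%. Values summed over a gene do not separate such transcripts from the coding ones.

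Expression was given as TPM, which counts a gene's transcripts relative to the whole library after adjusting for length, so that levels of different genes can be compared within a library. TPM keeps no read depth, and the depth behind each value is unknown. Summed marker genes went with the tissue labels, though not each marker did. Summed hepatocyte markers reached 95480 to 113578 TPM in liver, alveolar and airway markers 161129 to 190158 TPM in lung, and colonocyte and goblet markers 18420 to 34276 TPM in colon. Lung libraries also held hepatocyte marker RNA, at 27.7 to 1412 TPM in vehicle and 9.60 to 562 TPM in RECTAS libraries. In colon the hepatocyte sum was 293 to 349 TPM in vehicle and 326 to 382 TPM in RECTAS libraries. Hnf4a, on that list, averaged 310 TPM in vehicle colon and 162 TPM in vehicle liver. Car4, on the colon list, averaged 582 TPM in vehicle colon and 274 TPM in vehicle lung.

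In GENCODE M21 on GRCm38, whole genes from first to last exon, Srsf1 lay at chr11:88047373-88053755 and Srsf2 at chr11:116849901-116853094. Srsf3 lay at chr17:29032628-29043373 and Srsf7 at chr17:80200080-80207307. Srsf4 lay at chr4:131873617-131901706 and Srsf10 at chr4:135855747-135869908. The others were alone on their chromosomes, Srsf5 at chr12:80945504-80950507, Srsf6 at chr2:162931528-162937121, Srsf9 at chr5:115327177-115333080 and Srsf11 at chr3:158010473-158036639. Srsf2, Srsf7 and Srsf11 are on the minus strand and the rest on the plus strand.

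The start sites of the genes are shown first, because the promoter windows of the family hold the GC box and the ETS-type sequence more often than the windows of all genes. The RefSeq table (GRCm38.p6) held 13 windows for the 10 genes, each running from 250 bases before to 50 after a transcription start, among 32851 windows in all. The GC box GGGCGG, searched on both strands, was present in 12 of the 13 windows and 9 of the 10 genes, Srsf3 being the exception, and in 35.7% of all windows. The ETS-type sequence CCGGAAGT was present in 4 windows of 3 genes (Srsf4, Srsf5 and Srsf11) and in 3.89% of all windows. CCAAT was found for Srsf1, Srsf2, Srsf3 and Srsf10, in 4 windows, and in 37.4% of all windows. TATAAA was found for Srsf2 and Srsf3 alone, and in 13.6% of all windows. The NRF1-type sequence, GCGCA followed directly by TGCGC, was found once, for Srsf11, and in 0.971% of all windows. No window held TGACGTCA, CACGTG or TTTCGCGC, which stood in 1.79%, 7.15% and 0.323% of all windows. These windows were also rich in G and C, with a median of 69% against 52.7% for all windows, and in CpG, with a median of 38 against 7. A match is a description of the letters and not evidence that a factor binds there. The stretch upstream of the start is printed for Srsf3, the 1 gene with no GC box, and for Srsf4, the gene with the greatest RECTAS difference below. Both read 5′ to 3′ along the gene's plus strand, in GRCm38.p6 from RefSeq, and capitals mark the CCAAT sequence in Srsf3 and the GC boxes and ETS-type sequence in Srsf4, on either strand. The TATAAA of Srsf3 lies beyond the printed stretch. The stretches cover chr17:29032410-29032627 for Srsf3 and chr4:131873387-131873616 for Srsf4.
Srsf3: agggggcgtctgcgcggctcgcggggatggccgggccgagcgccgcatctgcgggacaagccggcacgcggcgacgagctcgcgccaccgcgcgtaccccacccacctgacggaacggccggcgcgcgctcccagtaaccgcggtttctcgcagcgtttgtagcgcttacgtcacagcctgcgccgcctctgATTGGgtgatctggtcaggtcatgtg
Srsf4: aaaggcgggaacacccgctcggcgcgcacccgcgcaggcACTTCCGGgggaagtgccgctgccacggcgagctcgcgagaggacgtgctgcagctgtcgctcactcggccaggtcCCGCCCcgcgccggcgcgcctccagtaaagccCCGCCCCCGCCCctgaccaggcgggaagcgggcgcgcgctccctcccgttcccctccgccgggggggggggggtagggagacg

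Across tissues as deposited, vehicle lung held the most SR protein RNA and vehicle liver the least. The 10 genes together summed to 1142 ± 42.5 TPM in vehicle colon, 1780 ± 87.0 TPM in vehicle lung and 646 ± 31.0 TPM in vehicle liver (mean ± SD, n = 3 each). In bulk tissue, fewer cells of a type and less RNA per cell cannot be told apart. By limma on log2(TPM + 1) with Benjamini-Hochberg adjustment over 16715 genes, 9 of the 10 genes were higher in lung than colon (Srsf11 turned with median ratio scaling), where 75.7% of all genes were called and 51% were called higher. All 10 were lower in liver than colon (Srsf4, Srsf5, Srsf6 and Srsf9 turned with median ratio scaling, and Srsf4 and Srsf9 with quantile normalisation), where 79.9% of genes were called and 63.8% were called lower. All 10 were higher in lung than liver (Srsf2, Srsf4, Srsf5 and Srsf9 turned with median ratio scaling), where 88% of genes were called and 74.5% were called higher. The 3 libraries of each tissue did not overlap for any of the 10 genes in any pair of tissues, against 53.8%, 65% and 76.2% of all genes in the same directions. Most genes therefore moved with the family between tissues as deposited: the median log2 difference of the 10 genes was 0.66 for lung against colon, -0.99 for liver against colon and 1.43 for lung against liver, beside 0.35, -0.68 and 1.10 for all genes tested.

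Median ratio scaling, which sets the middle gene of each library level, brought the median of all genes to -0.0049, -0.0086 and 0.044 in the same order. Directions that held in the deposited values and in each of 3 rescalings (median ratio, quantile, and one that leaves out mitochondrial genes and the 20 highest genes) were called for fewer members. Against colon, 5 genes stayed higher in lung (Srsf4, Srsf5, Srsf6, Srsf9 and Srsf10) and 4 stayed lower in liver (Srsf1, Srsf3, Srsf7 and Srsf10). Against liver, 4 stayed higher in lung (Srsf1, Srsf3, Srsf7 and Srsf10). Srsf10 was the 1 gene in all 3 of these sets. The share of all genes that held in the same way was not counted, so these counts do not set the family apart from other genes. With median ratio scaling, members called numbered 5 higher and 1 lower (Srsf2) for lung against colon, where 72.4% of all genes were called. For liver against colon they numbered 3 higher (Srsf4, Srsf5 and Srsf9) and 4 lower, against 73.7% of all genes called. For lung against liver they numbered 4 higher and 1 lower (Srsf4), against 76.7%. Called in the direction opposite to the deposited values in liver against colon, Srsf4 had an adjusted p of 3.00e-05, Srsf5 of 0.000556 and Srsf9 of 0.00167 by limma. 

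**Figure D1:**
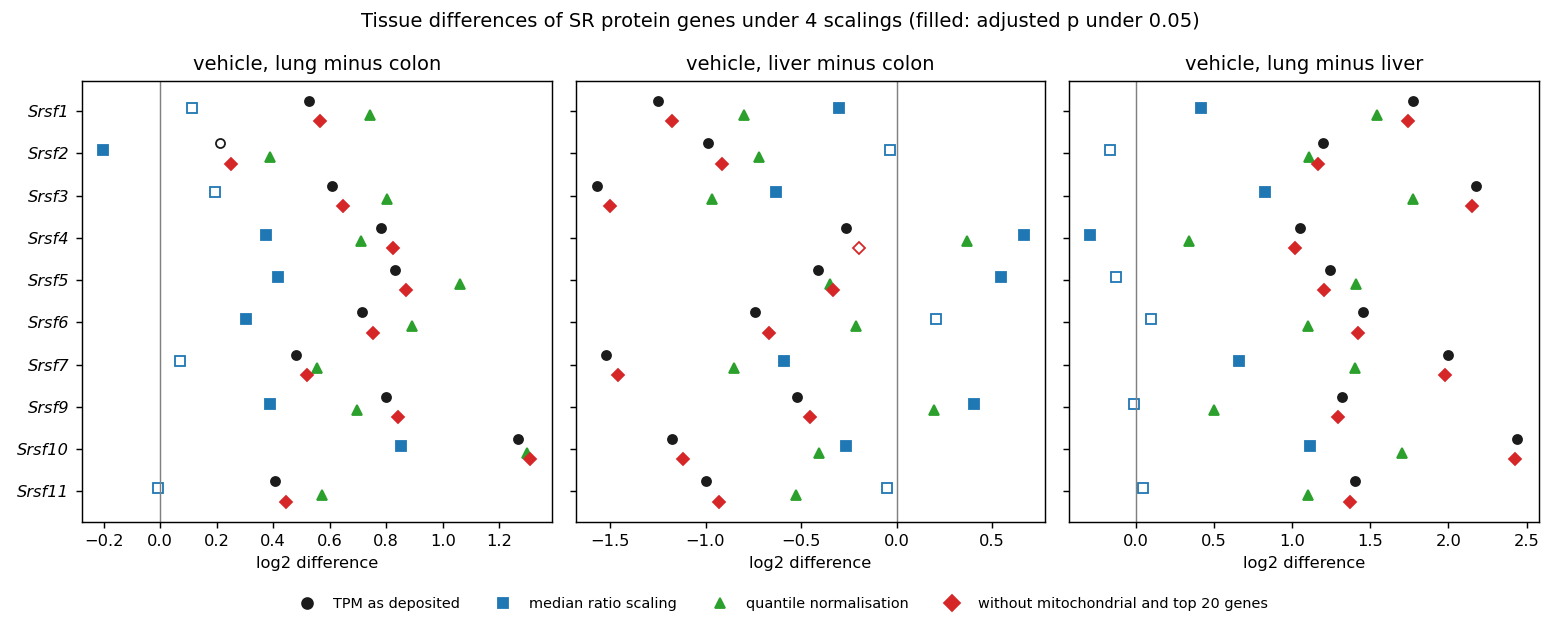
Log2 difference (x axis) of each SR protein gene (y axis) between vehicle tissues under 4 scalings, one panel per pair of tissues; filled symbols passed an adjusted p of 0.05. Median ratio scaling shifts every gene toward or across 0. Srsf1, Srsf3, Srsf7 and Srsf10 each stay on 1 side of 0 within every panel, and of these Srsf10 alone is filled throughout.

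Srsf10, known to repress splicing when dephosphorylated in heat shock and mitosis, had the greatest difference of the 10 genes between lung and each other tissue as deposited. Between liver and colon, Srsf3 (log2 -1.57), Srsf7 (-1.52) and Srsf1 (-1.25) differed more than Srsf10 (-1.18). Its vehicle libraries read 35.4, 33.4 and 33.7 TPM in colon, 81.1, 84.9 and 84.5 TPM in lung and 12.2, 15.7 and 16.01 TPM in liver. The tissues lay far apart, with each lung library above every colon library and each colon library above every liver library. Srsf10 was 5.70-fold higher in lung than liver (log2 difference 2.44, SE 0.10, limma adjusted p = 2.25e-08) and 2.44-fold higher in lung than colon (log2 1.26, SE 0.10, limma adjusted p = 2.62e-06).

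Among the SR proteins with a single RNA recognition motif, Srsf3 and Srsf7 were low in liver in the same way. Srsf3, which couples splicing to 3′ end processing and export, read 101.4, 96.6 and 91.0 TPM in vehicle colon, 145, 145 and 151 TPM in lung and 28.4, 30.2 and 37.4 TPM in liver. Srsf7, whose protein also holds a zinc knuckle, read 74.8, 63.7 and 72.3 TPM in colon, 90.1, 100.2 and 104.9 TPM in lung and 19.3, 22.9 and 30.5 TPM in liver. Each liver library was below every library of the other tissues for both genes. Srsf3 was 4.60-fold higher in lung than liver (log2 2.18, SE 0.10, limma adjusted p = 4.35e-08), and Srsf7 4.06-fold (limma adjusted p = 1.04e-06). The lung to colon difference of Srsf7 (log2 0.48, limma adjusted p = 0.0159) lost its call without colon vehicle library 2 (0.0584) or lung vehicle library 3 (0.0534). With median ratio scaling that difference was log2 0.070 and was not called (limma adjusted p = 0.642).

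Srsf2, the speckle protein SC35, read 197, 178.6 and 193.5 TPM in vehicle colon, 217, 227 and 216 TPM in lung and 81.9, 94.8 and 110.8 TPM in liver. Lung and colon did not overlap, but their log2 difference of 0.21 (95% interval -0.02 to 0.44) missed the threshold (limma adjusted p = 0.0870) and turned to -0.20 with median ratio scaling (adjusted p = 0.0422). It was called higher in lung with quantile normalisation (log2 0.39, limma adjusted p = 0.00201), without mitochondrial and the 20 highest genes (0.25, adjusted p = 0.0379) and in RECTAS libraries (0.38, adjusted p = 0.0160). At the same log2 difference it was also called when liver vehicle library 1 (adjusted p = 0.0265) or 3 (adjusted p = 0.0298) was left out of the fit. Srsf2 is a small gene that lies wholly opposite Mettl23, over 3194 bases, and overlaps Mfsd11 over 655. The library kit keeps strand, but whether the counting used strand is not given in the sources used here, so reads of these genes may not be separated. Mettl23 ranged from 13.7 to 29.4 TPM and Mfsd11 from 6.47 to 20.97 TPM over the 18 libraries, against 81.9 to 256 TPM for Srsf2.

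The remaining members with paired RNA recognition motifs, Srsf1, Srsf4, Srsf5, Srsf6 and Srsf9, and the SR-related Srsf11, which contacts the U2 snRNP recruiting factor U2AF, were all highest in lung and lowest in liver as deposited, with the changes under median ratio scaling given above. Srsf5, known from insulin-regulated splicing in cultured muscle cells, was the most abundant SR gene in all 3 tissues. It read 340, 358 and 391 TPM in vehicle colon, 611, 705 and 623 TPM in lung and 279, 266 and 271 TPM in liver. Among all genes above 0 it ranked 320th of 26883 in colon, 149th of 28075 in lung and 414th of 23098 in liver by group mean. Srsf1, the founding member SF2/ASF, read 140, 129 and 135 TPM in colon, 193, 205 and 184 TPM in lung and 61.6, 55.6 and 51.0 TPM in liver, and was 3.46-fold higher in lung than liver. Srsf4, which has a long arginine and serine tail, differed least between lung and liver at 2.10-fold, and its direction turned with median ratio scaling (log2 -0.29). It read 34.8, 30.9 and 36.9 TPM in colon, 58.4, 63.0 and 56.9 TPM in lung and 25.4, 29.5 and 29.8 TPM in liver. Its lower level in liver than colon (log2 -0.27, limma adjusted p = 0.0247) turned to 0.67 with median ratio scaling and 0.37 with quantile normalisation. It lost its call without mitochondrial and the 20 highest genes (adjusted p = 0.0727), in RECTAS libraries (0.769), and without colon vehicle library 1 (0.0634) or 3 (0.0916) or liver vehicle library 1 (0.0736).

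Srsf6, Srsf9 and Srsf11 followed the same order of tissues as deposited. Srsf6 averaged 81.1 ± 7.02 TPM in vehicle colon, 133 ± 4.77 in lung and 48.4 ± 6.99 in liver. Srsf9, a short member, averaged 28.9 ± 0.391, 51.0 ± 3.12 and 19.96 ± 2.35 TPM in the same order. Srsf11 averaged 111 ± 6.80, 147 ± 9.17 and 54.8 ± 1.90 TPM (SD, n = 3 for each value). With median ratio scaling, Srsf6 and Srsf9 read higher in liver than colon (log2 0.21 and 0.40), and Srsf11 in lung read log2 -0.0067 against colon.

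**Figure D2:**
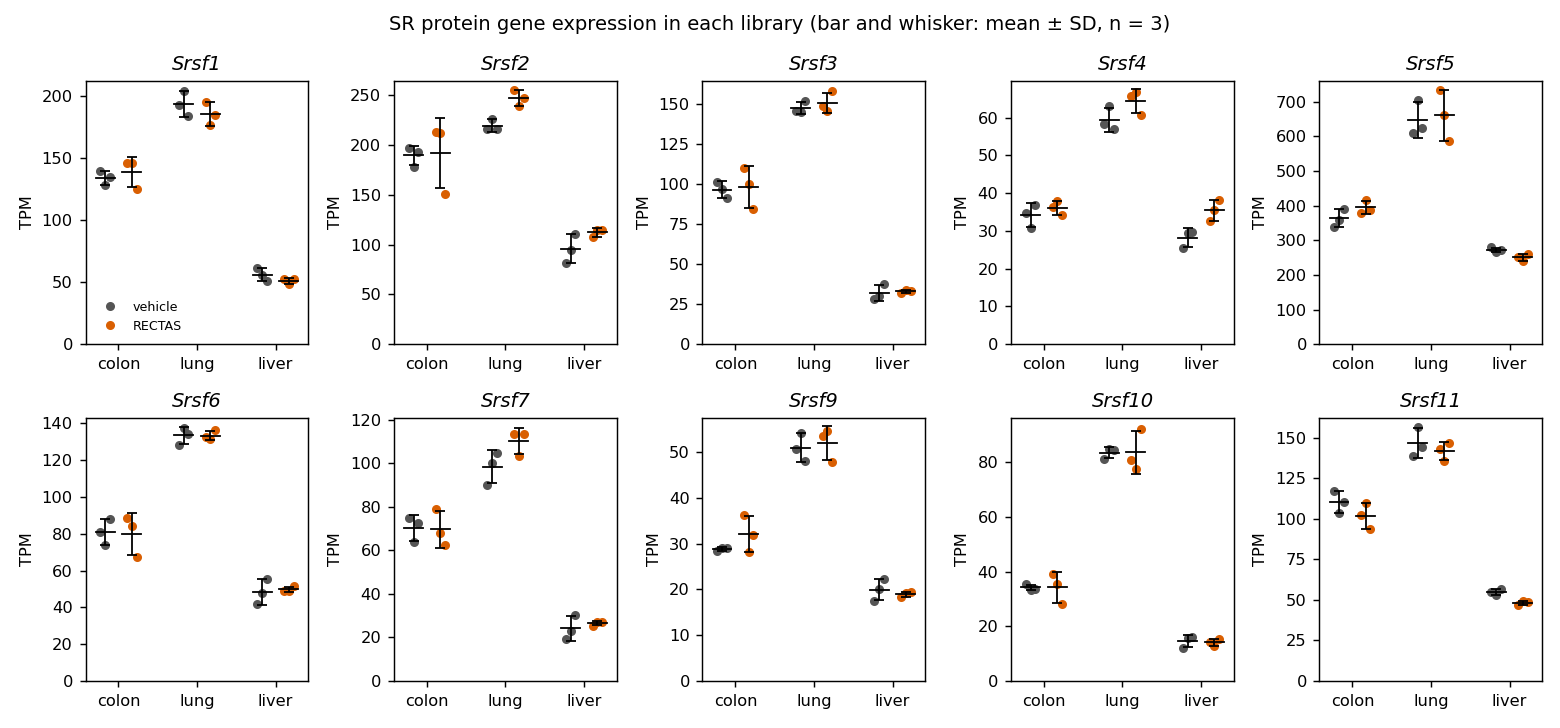
TPM (y axis) of each SR protein gene in each library by tissue (x axis), with vehicle and RECTAS as separate colours; bars and whiskers show mean ± SD, n = 3. Vehicle and RECTAS points overlap in every pair except Srsf2 in lung and Srsf4, Srsf5 and Srsf11 in liver.

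Within each tissue, Srsf5, Srsf2 and Srsf1 were the 3 highest members in that order. Neighbours in the order of vehicle means that did not lie apart were Srsf6 and Srsf7 and Srsf4 and Srsf10 in colon, and Srsf3 and Srsf11 in lung. In liver, these were Srsf1 and Srsf11, Srsf11 and Srsf6, Srsf3 and Srsf4, Srsf4 and Srsf7, and Srsf7 and Srsf9. The share of each gene in the summed TPM of the 10 does not depend on scaling of the library. Srsf5 held 31.8 ± 1.95% of the family sum in vehicle colon, 36.3 ± 1.10% in lung and 42.2 ± 2.56% in liver, with no overlap. Srsf3 held 8.44%, 8.29% and 4.93%, and Srsf1 11.8%, 10.9% and 8.71%, liver lying below both other tissues for each. Srsf4 held 2.99% in colon, 3.34% in lung and 4.37% in liver, apart in each pair. Srsf10 held 2.99%, 4.70% and 2.26%, with all 3 tissues apart and lung highest. The share of Srsf6 overlapped between all pairs of tissues, at 7.09%, 7.50% and 7.46%.

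**Figure D3:**
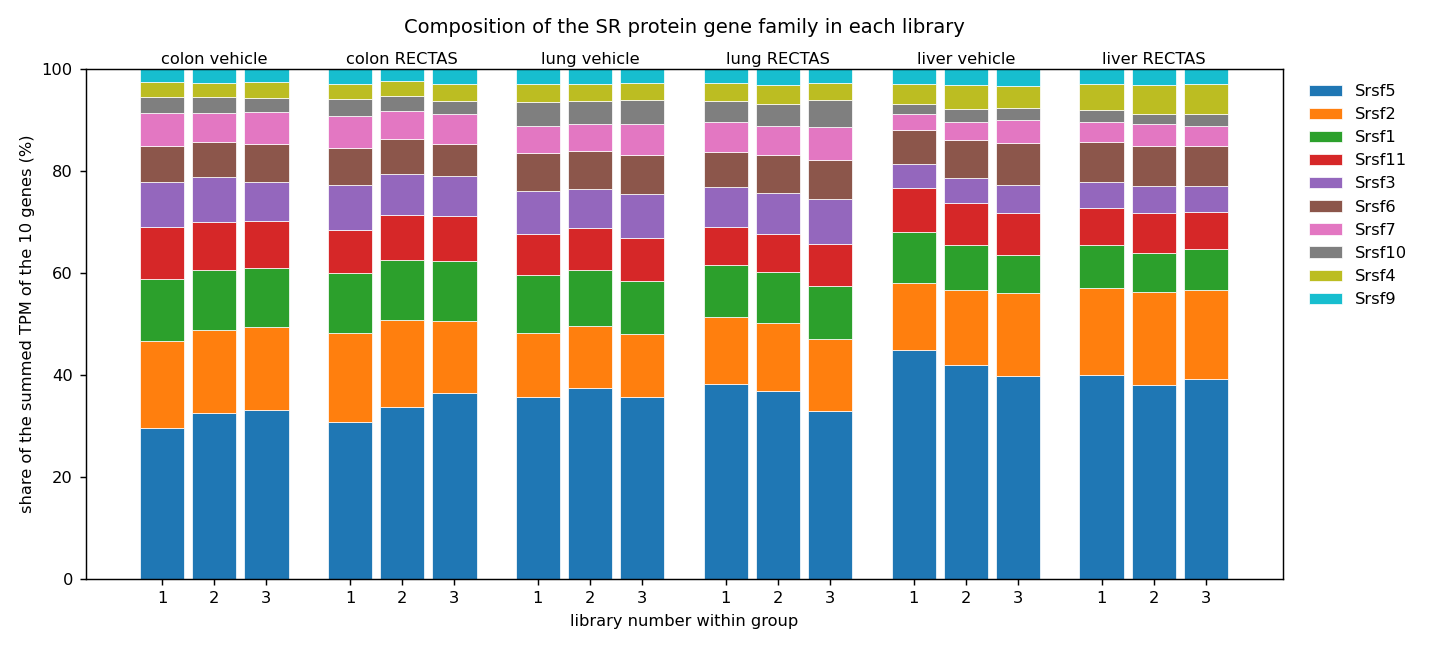
Share of the summed TPM of the 10 genes (y axis, %) held by each gene in each library (x axis, number within group), stacked. Srsf5 takes the largest band in every library, 31.8% of the sum in vehicle colon and 42.2% in vehicle liver on average.

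With RECTAS the family sum differed from its vehicle level by less than 1 SD of the vehicle libraries in each tissue. It averaged 1178 ± 96.7 TPM in RECTAS colon, 1830 ± 81.6 TPM in RECTAS lung and 640 ± 17.6 TPM in RECTAS liver (SD, n = 3). No SR gene was called in any tissue (limma, Benjamini-Hochberg). In colon 0 of 14282 genes (0%) were called, in lung 1 of 15699 (0.00637%) and in liver 2 of 11944 (0.0167%). At an unadjusted p under 0.05 the members numbered 0 in colon, against 1.62% of all genes, 1 in lung (Srsf2), against 12.6%, and 2 in liver (Srsf4 and Srsf11), against 11.6%. Vehicle and RECTAS libraries lay apart for 0 members in colon, against 3.43% of all genes apart upward and 2.01% apart downward. They lay apart upward for 1 in lung, against 16.1%, and downward for 0, against 3.18%. In liver 1 lay apart upward, against 5.75%, and 2 downward, against 13%. Over the 10 genes in 3 tissues, 95% intervals lay between log2 -0.34, for Srsf11 in liver, and 0.55, for Srsf4 in liver.

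Srsf4 had the greatest RECTAS difference. In liver its vehicle libraries read 25.4, 29.5 and 29.8 TPM and its RECTAS libraries 32.6, 35.6 and 38.2 TPM. Every RECTAS library was above every vehicle library. The means differed 1.25-fold (log2 0.32, SE 0.098, 95% interval 0.087 to 0.55, adjusted p = 0.336 by limma). Its alternatives ran from log2 0.25 to 0.38, with adjusted p from 0.115 to 0.702. Its share of the family sum was 5.54% against 4.37% in liver, with no overlap. In lung it read 58.4, 63.0 and 56.9 TPM in vehicle and 65.7, 66.8 and 60.8 TPM in RECTAS libraries, which overlapped (log2 0.11, limma adjusted p = 0.516). In colon the log2 difference was 0.08 (limma adjusted p = 0.9999). Averaged over the tissues Srsf4 was at log2 0.17 (95% interval 0.065 to 0.27, adjusted p = 0.220 by limma).

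Srsf2 was the member that separated in lung. Its vehicle libraries read 217, 227 and 216 TPM and its RECTAS libraries 256, 240 and 248 TPM, with no overlap. The 1.13-fold difference (log2 0.17, 95% interval 0.046 to 0.30) missed the adjusted threshold (limma adjusted p = 0.313). Alternatives for this lung difference ran from log2 0.069 to 0.20, with limma adjusted p from 0.186 to 0.738. In liver the libraries read 81.9, 94.8 and 110.8 TPM in vehicle and 107.6, 115.0 and 115.2 TPM in RECTAS, and overlapped (1.18-fold, log2 0.24, limma adjusted p = 0.476). In colon, RECTAS libraries 1 and 2 read 213 and 212 TPM and library 3 read 151 TPM, around the vehicle range of 179 to 197 TPM.

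Srsf11 had a lower mean TPM with RECTAS in all 3 tissues. In liver its vehicle libraries read 54.8, 52.9 and 56.7 TPM and its RECTAS libraries 46.7, 49.1 and 48.8 TPM. Every RECTAS library was below every vehicle library. The ratio was 0.879 (log2 -0.18, 95% interval -0.34 to -0.02, adjusted p = 0.399 by limma). In colon it was -0.12 and in lung -0.05 on the log2 scale. Averaged over tissues the difference was log2 -0.12 (95% interval -0.20 to -0.031, adjusted p = 0.314 by limma). Srsf5 also separated in liver, at 279, 266 and 271 TPM in vehicle and 252, 240 and 259 TPM in RECTAS libraries (log2 -0.12, limma adjusted p = 0.522).

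Srsf6, the member linked to the compound in earlier work, did not differ beyond the spread of its libraries. In colon it read 81.1, 74.1 and 88.2 TPM in vehicle and 88.6, 84.2 and 67.2 TPM in RECTAS libraries. In lung it read 128, 138 and 134 TPM in vehicle and 132, 131 and 136 TPM in RECTAS libraries, and in liver 41.7, 47.9 and 55.6 TPM against 48.9, 49.1 and 51.3 TPM. All 3 pairs of groups overlapped. Its log2 differences were -0.03 in colon (95% interval -0.32 to 0.27), 0.00 in lung (-0.13 to 0.13) and 0.05 in liver (-0.21 to 0.31).

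Srsf7 in lung read 90.1, 100.2 and 104.9 TPM in vehicle and 113.6, 103.2 and 113.5 TPM in RECTAS libraries. Its groups overlapped by 1 pair of libraries, and the log2 difference of 0.16 (95% interval -0.02 to 0.34) missed the threshold (limma adjusted p = 0.431). In liver it read 19.3, 22.9 and 30.5 TPM in vehicle and 25.3, 27.0 and 27.0 TPM in RECTAS libraries, the vehicle range enclosing the RECTAS range.

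Srsf1 did not pass the test in any tissue, at log2 0.05 in colon, -0.06 in lung and -0.13 in liver. In liver its vehicle libraries read 61.6, 55.6 and 51.0 TPM and its RECTAS libraries 52.6, 48.3 and 52.3 TPM, which overlapped. As a share of the family sum Srsf1 was lower with RECTAS in lung, 10.2% against 10.9%, and the groups did not overlap. Other shares whose groups lay apart were those of Srsf2, at 13.6% against 12.4% in lung and 17.6% against 14.8% in liver, and Srsf4 in lung, at 3.52% against 3.34%. The share of Srsf11 was lower in colon, at 8.66% against 9.68%, and in liver, at 7.53% against 8.48%. The shares have a fixed total, so a higher share of 1 gene lowers those of the others. Shares were not computed for other sets of genes, so these separations have no background to be set against.

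Srsf3, Srsf9 and Srsf10 overlapped between vehicle and RECTAS in every tissue. Srsf9 had the highest log2 difference of the family in colon, 0.14 (95% interval -0.11 to 0.39), where its vehicle libraries read 28.5, 29.2 and 29.1 TPM and its RECTAS libraries 36.2, 28.3 and 31.8 TPM. One RECTAS library stood high and another lay below all vehicle libraries. Srsf3 differed by log2 0.02 in colon, 0.03 in lung and 0.05 in liver. Srsf10 differed by log2 -0.01 in colon, -0.00 in lung and -0.04 in liver. Srsf5 differed by 0.12 in colon and 0.03 in lung.

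In colon 6 of the 10 genes were higher with RECTAS, against 57.2% of all genes, in lung 6, against 65.4%, and in liver 5, against 40%. In lung the count was 3 under each of the 3 rescalings, with a median of -0.034 (median ratio), -0.061 (quantile) or -0.035 (without mitochondrial and the 20 highest genes). Single libraries moved the counts too. Without RECTAS colon library 3 it was 9 of 10 in colon (median 0.12), without lung vehicle library 2 it was 9 in lung, and without liver vehicle library 1 it was 3 in liver. The median of the 10 was log2 0.0099 in colon, 0.027 in lung and 0.0026 in liver, beside 0.018, 0.058 and -0.038 for all genes.

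**Figure D4:**
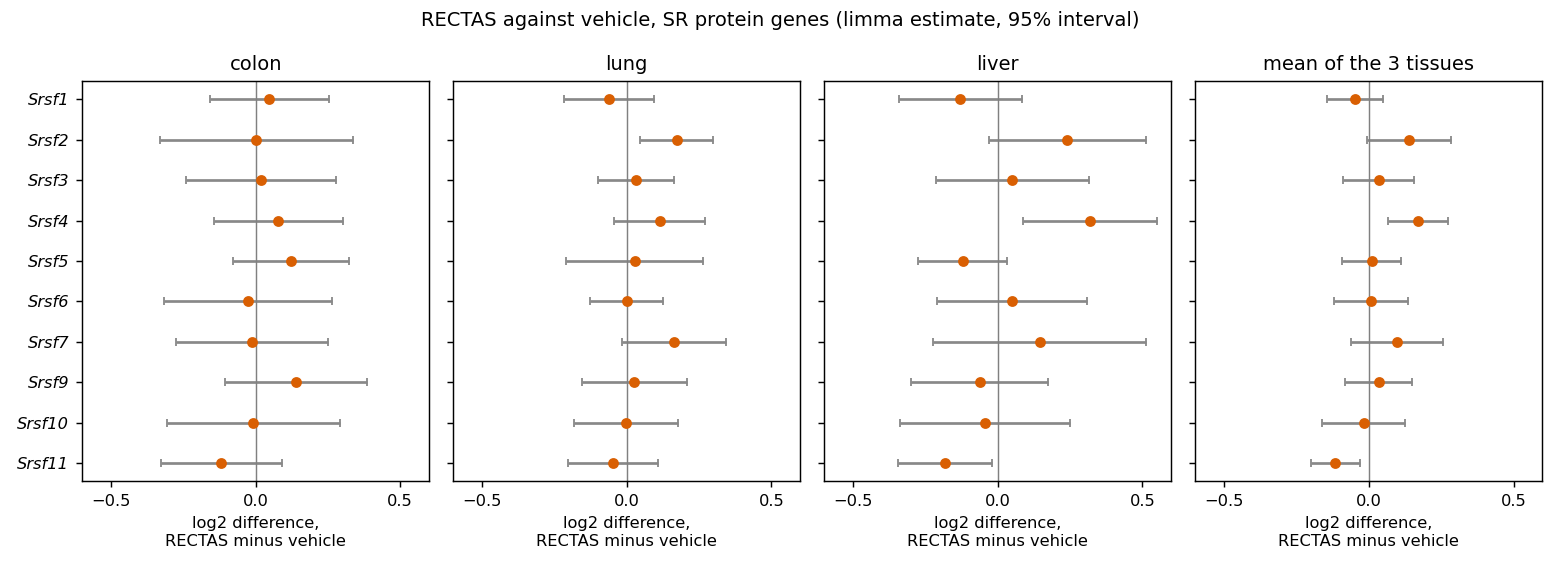
Log2 difference, RECTAS minus vehicle (x axis), of each SR protein gene (y axis) in each tissue and averaged, with 95% intervals. Most intervals include 0, and Srsf4 and Srsf11 in liver and on average, and Srsf2 in lung, do not, with no adjusted p under 0.05.

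Averaged over the tissues in 1 fit, 0 of 10 members were called, against 0.188% of all genes, and 2 (Srsf4 and Srsf11) had an unadjusted p under 0.05, against 9.82%. On this average 7 of the 10 were above 0, against 54.5% of all genes. The count was 7 with median ratio scaling (median 0.014) and 4 with quantile normalisation (median -0.011). It was 5 without mitochondrial and the 20 highest genes (median -0.0022). The RECTAS differences did not pass a test of a difference between tissues for any member (0 of 10 by limma each time, against 0.0114% of genes for lung minus colon, 0.0285% for liver minus colon and 0.0228% for lung minus liver). At an unadjusted p under 0.05 the members numbered 0 each time, against 3.22%, 5.37% and 8.98% of all genes.

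Single libraries set some of these spreads. RECTAS colon library 3 was the lowest of its group for 8 of 10 members. Of the 6 colon libraries it held the highest colonocyte and goblet (34276 TPM), hepatocyte (382 TPM) and erythroid (83.5 TPM) marker sums. It also held the lowest cycling-cell and smooth muscle (1391 TPM) sums. Its leukocyte, pancreas, and alveolar and airway sums lay at neither end. The cycling-cell marker sums ran from 203 to 219 TPM in vehicle colon and from 166 to 287 TPM in RECTAS colon. Smooth muscle markers reached 4212 TPM in vehicle colon library 1, the highest of the 6. Without RECTAS colon library 3 the colon log2 difference was 0.16 for Srsf2, 0.12 for Srsf3 and 0.13 for Srsf10. Liver vehicle library 3 was highest of its group for 8 members and library 1 lowest for 7. The part of tissue makeup, or of the hepatocyte marker RNA in lung, in these values was not tested.

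Listed neighbours of the family gave no calls with RECTAS either. Of the SR-related proteins (24 of 25 tested), 14 were higher in colon, 21 in lung and 10 in liver. In liver the lowest p belonged to Srrm2, a speckle scaffold, at 85.3 against 104.8 TPM (log2 -0.29, adjusted p = 0.298 by limma), followed by Son at 58.5 against 67.9 TPM and Arglu1 at 13.2 against 15.5 TPM. Their vehicle and RECTAS libraries did not overlap, as for 13% of all genes in that direction. In lung it belonged to Tra2a, at 110.7 against 99.0 TPM (log2 0.16, limma adjusted p = 0.393), followed by Scaf1 at 42.3 against 34.5 TPM and Thrap3 at 115.8 against 103.7 TPM. In colon U2af1, at 95.7 against 86.1 TPM, was followed by Arglu1 at 48.4 against 53.1 TPM and Son at 124.0 against 134.5 TPM. Of the kinases and the import receptor Tnpo3, 6 of 10 were higher in colon, 8 of 10 in lung and 4 of 9 in liver. Srpk1 led in colon at 43.8 against 38.5 TPM, before Clk3 and Clk4, and in lung at 31.9 against 28.9 TPM, before Dyrk1a and Prpf4b. In liver the lowest p belonged to Prpf4b, at 21.3 against 18.7 TPM, then Clk4 and Srpk2. The hnRNP genes, whose proteins often oppose SR proteins at exons, were higher for 6 of 8 in colon, 8 of 8 in lung and 1 of 8 in liver, with none called. Of all genes tested, 57.2% were higher in colon, 65.4% in lung and 40% in liver. The counts for these lists used the deposited values only and were not repeated after rescaling. Hnrnph1 read 521 against 466 TPM in lung, followed by Hnrnpf and Hnrnpa0, and Hnrnpa1 read 60.4 against 72.0 TPM in liver, followed by Hnrnpf and Hnrnpa2b1. In colon Hnrnpf, Hnrnpa3 and Ptbp1 had the lowest p. These lists were chosen with earlier results known.

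Among all libraries, likeness of pattern was measured as Pearson r of log2(TPM + 1) after subtracting each tissue's mean, over 18 libraries, for 6803 genes averaging at least 5 TPM in each tissue. The genes most like the family sum were Vamp2 (r = 0.851), Impdh2 (0.851), Lhfp (0.834), Arrb2 (0.822), Pabpc1 (0.809), Hcfc1 (0.808), Zc3h7b (0.807) and Scpep1 (0.796). The median gene had r = 0.212. Between members, 34 of 45 pairs were positive, from -0.328 (Srsf1 and Srsf7) to 0.832 (Srsf2 and Srsf7). The libraries share preparation and TPM scale, and these are descriptions with no p. Srsf7 was the member most like Srsf2, Srsf3 (0.825) and Srsf9 (0.419). Srsf2 was the member most like Srsf4 (0.746), Srsf6 (0.817) and Srsf7, while Srsf10 was most like Srsf6 (0.791). Srsf1 and Srsf11 were most like each other (0.509), and Srsf5 was most like Srsf1 (0.460).

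Outside the family, the genes most like each member were Tcp11l2 for Srsf1 (r = 0.875), Armc1 for Srsf2 (0.929), Diablo for Srsf3 (0.906) and Ubqln4 for Srsf4 (0.941). They were Slc6a6 for Srsf5 (0.821), Nop56 for Srsf6 (0.868), Zfp146 for Srsf7 (0.909) and Apip for Srsf9 (0.801). For Srsf10 it was Tatdn1 (0.934) and for Srsf11 Rbm6 (0.825).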

How the data were processed

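Gene-level TPM per library were used as the authors deposited them, for 18 libraries grouped by the labels. The submitters' processing notes list HISAT2 2.2.0, RSEM 1.3.0 and the build GRCm38, without roles. Each TPM column keeps no read depth, and its precision is set by the 3 libraries per group. Genes reaching 1 TPM in 3 or more libraries of a comparison were tested as log2(TPM + 1), with a pseudocount of 1 TPM, using limma 3.58.1 in R 4.3.3 (moderated, two-sided, mean-variance trend; Benjamini-Hochberg over all genes tested at 0.05). Fold changes from TPM + 1 understate those of low genes. Tissue comparisons used the 9 vehicle libraries in 1 fit, RECTAS comparisons each tissue, and the average and the differences between tissues all 18. Simulated data, with noise set from these libraries, were run only through the within-tissue RECTAS fits, and no result here rests on them. All 10 members were named, with the 3 lowest-p genes of each list per tissue and the 8 genes most like the family sum. Members and lists were chosen with earlier results of these data known. Alternatives covered pseudocount, filter, scaling, model, replicate block and each library left out. Coordinates come from GENCODE M21 and promoters from RefSeq. Python 3.11.15 made the annotation and figures.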

Additional observations from a re-analysis of the deposited data

How the results depend on the processing

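No RECTAS comparison called a member under any alternative, with or without each library, and the cause of the changes below was not tested. With median ratio scaling, lung against liver had 5 members called (4 higher, 1 lower) in place of 10, lung against colon 5 higher and 1 lower in place of 9 higher, and liver against colon 3 higher and 4 lower in place of 10 lower, and directions turned for Srsf2 (-0.20) and Srsf11 (-0.0067) in lung against colon, for Srsf4 (0.67), Srsf5 (0.55), Srsf6 (0.21) and Srsf9 (0.40) in liver against colon, and for Srsf2 (-0.17), Srsf4 (-0.29), Srsf5 (-0.13) and Srsf9 (-0.014) in lung against liver (log2). Of all genes, median ratio scaling called 76.7% for lung against liver, 72.4% for lung against colon and 73.7% for liver against colon. Quantile normalisation turned Srsf4 (0.37) and Srsf9 (0.20) in liver against colon. For RECTAS against vehicle, where no direction was called, median ratio scaling turned Srsf2 in colon (-0.0052), Srsf3 (-0.029), Srsf5 (-0.034) and Srsf9 (-0.034) in lung and Srsf10 in liver (0.0040). Quantile normalisation turned Srsf2 (-0.023) and Srsf3 (-0.014) in colon, Srsf3 (-0.061), Srsf5 (-0.0072) and Srsf9 (-0.061) in lung and the averages of Srsf3 (-0.0067), Srsf5 (-0.015) and Srsf6 (-0.038). Rescaling without mitochondrial and the 20 highest genes turned Srsf2 (-0.026) and Srsf3 (-0.0096) in colon, Srsf3 (-0.030), Srsf5 (-0.035) and Srsf9 (-0.035) in lung and the averages of Srsf5 (-0.014) and Srsf6 (-0.016). Leaving out each library gave 8 to 10 members called for lung against colon, against 67.9% to 78.2% of all genes. For liver against colon it gave 9 to 10, against 76.3% to 84.2%, and for lung against liver 10, against 84.8% to 90.8%. It turned the sign of small colon differences for Srsf2 (-0.082 to 0.16), Srsf3 (-0.066 to 0.12), Srsf6 (-0.10 to 0.094), Srsf7 (-0.11 to 0.064) and Srsf10 (-0.11 to 0.13). In lung the ranges crossing 0 were Srsf3 (-0.00077 to 0.057), Srsf5 (-0.052 to 0.11), Srsf6 (-0.028 to 0.023), Srsf9 (-0.015 to 0.084), Srsf10 (-0.075 to 0.049) and Srsf11 (-0.087 to 0.00023). In liver they were Srsf3 (-0.027 to 0.17), Srsf6 (-0.052 to 0.15), Srsf9 (-0.15 to 0.014) and Srsf10 (-0.16 to 0.021), and on average Srsf5 (-0.017 to 0.037), Srsf6 (-0.026 to 0.047) and Srsf10 (-0.057 to 0.026). The main fits did not pair libraries by number. Correlations of same-numbered vehicle and RECTAS libraries ran from -0.253 to 0.274 in colon, from -0.0454 to 0.385 in lung and from -0.0317 to -0.0012 in liver. In colon, RECTAS library 3 gave -0.402 with vehicle library 1 and 0.411 with vehicle library 2. In lung, numbers 1 and 3 gave 0.385 and 0.294 with their own number, and -0.354 and -0.342 with each other. Hepatocyte marker sums of lung libraries 1, 2 and 3 were 27.7, 505 and 1412 TPM in vehicle and 9.60, 65.6 and 562 TPM in RECTAS. The part of that RNA in the lung correlations was not tested. Between tissues, same-numbered libraries ran from -0.0974 to 0.0923. With 3 libraries per group, these values cannot settle whether the numbers pair the samples. With the replicate block the counts were 0 for each RECTAS comparison and 9, 10 and 10 for the tissues, where 74.7%, 79% and 87.6% of all genes were called. The number of libraries limits what these values can resolve, and TPM gives no depth.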

Other observations

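Srsf12, a further SR-type gene outside the family list, read 0.24 to 0.53 TPM in vehicle colon and 0.04 to 0.08 TPM in vehicle lung, and was listed at 0 in each vehicle liver library. The pseudogene Srsf3-ps read at most 0.52 TPM in any library. Both were chosen after their values were seen.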
